A study of Mus musculus with 4 samples.

Results

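The 10 genes described here belong to the Notch pathway, or mark the dendritic cells (DC) that depend on it. They were chosen by name, with earlier results of these data known. They are the receptors Notch1, Notch2 and Notch4, the ligand gene Dll1, the DNA-binding effector Rbpj and the coactivators Maml1 and Maml2. The others are the target Hes1, the modulator Dtx1 and the surface marker Esam. A Runx3 peak was assigned to a gene when its centre lay in the gene body or within 50 kb of it, by the GENCODE M1 annotation on mm9. By this rule 32 of the 15121 peaks of the deposited list belonged to the 10 genes, which are 10 of 22380 annotated protein-coding genes, and 0 peaks were shared by any of them.

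Notch receptors are cut after a ligand on a neighbouring cell binds them, and the freed intracellular domain enters the nucleus. There it joins Rbpj, which sits on DNA with corepressors in the absence of the signal, and Mastermind-like (Maml) proteins complete the activating complex. In the spleen, Notch2 acting through Rbpj is needed for the CD11b+ DC with high surface Esam, a cell adhesion molecule, and Runx3 is a RUNX family transcription factor of the same CD4+ and CD11b+ DC.

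Chromatin of splenic CD11chiMHCII+CD4+ DC was immunoprecipitated in 2 Runx3 samples with a polyclonal home-made antibody, and 2 input samples of whole cell extract served as control. Each sample is labelled as coming from approximately 15 mice, and no treatment, genotype change or age is stated in the labels. The strain is labelled C57BL/6 in all samples but input sample 2, which is labelled C57BL/7. The deposited file is 1 call of both Runx3 samples against both input samples, so no peak has a value per sample, no spread between replicates can be given and no difference below was tested. The depth of each sample was not analysed here, and a region without a peak is only one that was not called.

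Each peak carries a score written by MACS2, whose unit no source used here gives, so it is read here only as a rank within the list. Over all peaks it ran from 1.33 to 309, with quartiles of 7.20 and 23.2 and a median of 12.1. The list holds binding and not RNA, so the cell label could not be checked by expression. Peaks within 50 kb were present at 6 of 6 genes that mark these DC (5 to 14 peaks each), at Cd3e, Cd3g and Lat of T cells (2 or 3 each) and at Cd79a of B cells (3 peaks), and Ms4a1 of B cells had 0.

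Runx3 peaks were found at 9 of the 10 Notch pathway genes, and Esam had 0. Over all protein-coding genes, 62.5% had at least 1 peak by the same rule. Notch2 had 7 peaks, Dtx1 had 6, Rbpj had 4, Notch1, Notch4, Maml1 and Hes1 had 3 each, Maml2 had 2 and Dll1 had 1. The median was 3 peaks per gene, against 1 over all protein-coding genes. Since a long window holds more peaks, the number was also taken per 100 kb of window: the median over the 10 genes was 2.09 peaks per 100 kb, and over all protein-coding genes 0.879. Dtx1 was densest with 4.55 peaks per 100 kb, followed by Notch2 with 2.96 and Hes1 with 2.90, while Dll1 had 0.913. A count of 5 or more peaks, as at Notch2 and Dtx1, was reached by 11.7% of all protein-coding genes.

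The number of genes with a peak depended on the limit. In the gene body alone 5 of the 10 had a peak, as 23.1% of protein-coding genes did. With 10 kb on each side it was again 5, against 43.4%, and with 100 kb it was 10, against 72.1%. When only peaks at or above the median score counted, 7 genes had one, against 47.3%, and at or above the upper quartile 5 did, against 31.0%. With regulatory domains, which extend from the start of a gene towards its neighbours, 6 had one, against 43.3%. Counting any base of the peak in place of its centre gave 9, against 62.6%.

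**Figure D1:**
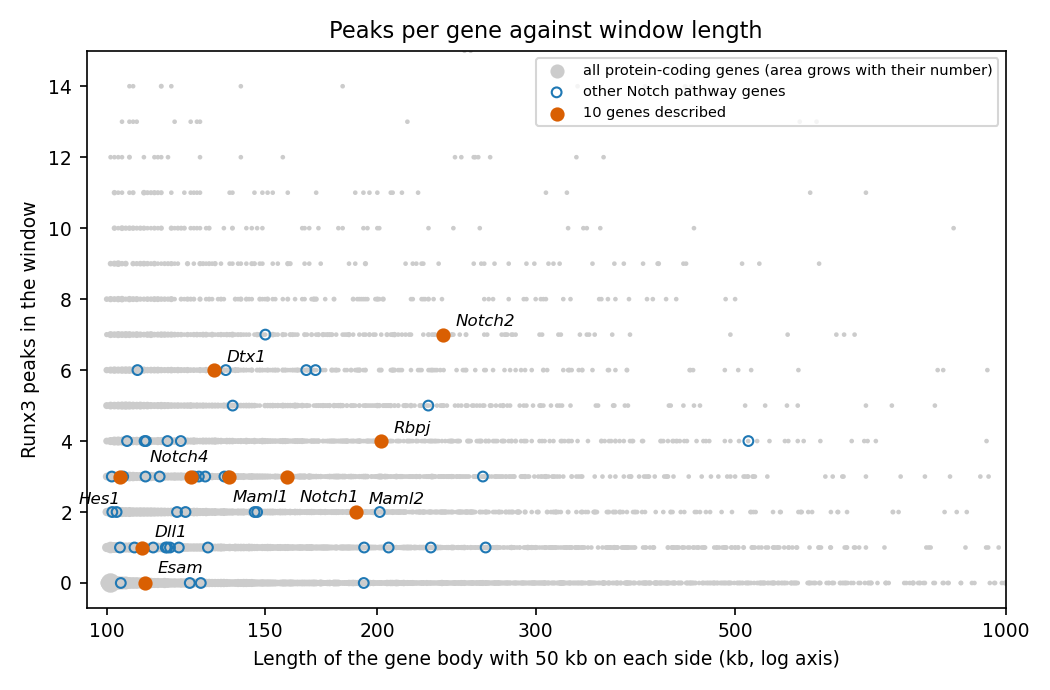
Runx3 peaks per gene against the length of the gene body with 50 kb on each side (kb, log axis), for the 10 genes described (filled orange points), 46 other Notch pathway genes (open blue points) and all protein-coding genes (grey points, area growing with their number). The vertical axis ends at 15 peaks and the horizontal axis at 1000 kb, which leaves out some protein-coding genes. Notch2, with 7 peaks in 237 kb, and Dtx1, with 6 in 132 kb, lie highest of the 10, and Esam lies at 0.

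Where the peaks lay separated the genes further. Of the 32 peaks 11 were centred inside the gene body, and these belonged to Notch2, Notch4, Rbpj, Hes1 and Dtx1. For 19 peaks the nearest transcript start of any protein-coding gene was that of the Notch pathway gene itself, and for 13 it was that of a neighbour. All peaks of Rbpj and Hes1 were nearest their own gene, as were 5 of 7 at Notch2, 4 of 6 at Dtx1, 2 of 3 at Notch4 and 1 of 2 at Maml2. At Notch1, Maml1 and Dll1 no peak was nearest its own gene. Thus 6 of the 10 genes held a peak nearest their own start, where 36.5% of protein-coding genes held one at any distance.

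**Figure D2:**
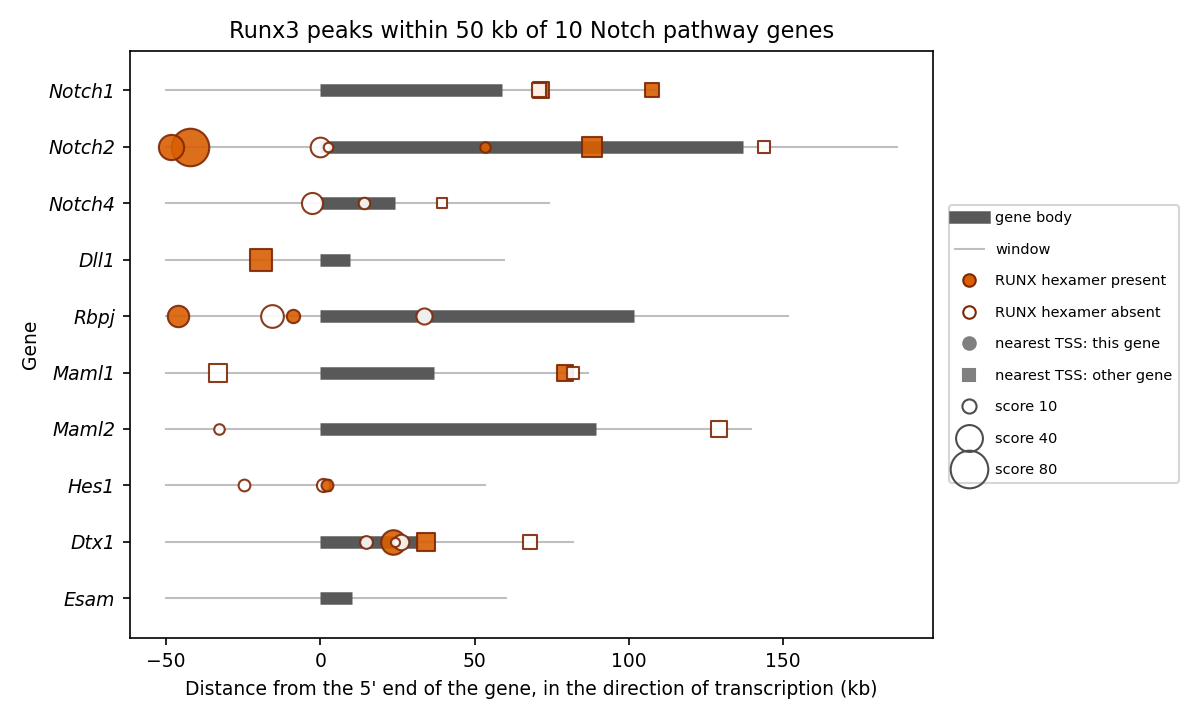
Runx3 peaks at the 10 genes, by distance from the 5′ end of the gene in the direction of transcription (kb). Bars are gene bodies and thin lines the windows of 50 kb on each side; symbols are peaks, with area growing with the score, filled where the RUNX hexamer is present, round where the nearest start is that of the gene and square where it is that of another gene. The largest symbol is the Notch2 peak with a score of 79.8, which lies 42.3 kb upstream, and all symbols at Notch1, Maml1 and Dll1 are square.

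Notch2 encodes the receptor on which the Esamhi DC depend. The gene lies at chr3:97817461-97954290 on the plus strand. Its strongest peak, chr3:97774937-97775476, scored 79.8 and ranked 346 in the list, the highest score near any of the 10 genes. It is in no protein-coding gene and centred 42255 bp upstream of the Notch2 start. A further peak in no protein-coding gene, chr3:97768745-97769300, lies 48439 bp upstream and scored 35.1. The nearest protein-coding start of both is that of Notch2. The peak over the promoter, chr3:97817029-97817473, is centred 210 bp upstream of the start and scored 20.9, so that both distal peaks scored above it. Inside the gene, peaks in introns 1 and 2 scored 3.69 and 4.79, and a peak centred in exon 9, chr3:97905345-97905770, scored 20.1. The remaining peak, 6.88 kb past the 3′ end of the gene, scored 6.57 and lies nearest the start of Adam30.

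The RUNX hexamer TGTGGT was searched on both strands of every peak. It was present in both distal peaks of Notch2, in 3 copies in the peak at 48439 bp and 1 copy in the peak at 42255 bp, where it lay 54 bp from the centre, and it was absent from the promoter peak. The sequences below are shown because they hold the hexamer nearest the centre of these peaks. They are plus-strand sequence of mm9, with the hexamer, or its reverse complement ACCACA, in capitals.
Notch2, 42255 bp upstream, chr3:97775201-97775321: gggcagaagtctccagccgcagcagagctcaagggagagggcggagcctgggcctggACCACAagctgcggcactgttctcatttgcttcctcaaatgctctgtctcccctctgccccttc
Notch2, 48439 bp upstream, chr3:97768896-97769016: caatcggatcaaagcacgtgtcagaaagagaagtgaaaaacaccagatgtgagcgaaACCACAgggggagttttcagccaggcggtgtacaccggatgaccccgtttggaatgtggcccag

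Notch4 encodes a receptor best known from endothelium. It lies at chr17:34701213-34725448 on the plus strand, where 10 other protein-coding genes reach into its window. The strongest peak, chr17:34698136-34698587, lies 2852 bp upstream of the start and scored 24.1. The peak in intron 18, chr17:34715054-34715373, scored 6.05 and is 260 bp past the start of a noncoding Notch4 transcript. The third is centred in the 5′ exon of Rnf5, 13 bp from its start, and scored 3.17, which is percentile 2.67 of the list. TGTGGT was absent from all 3. GTGGGAA, the heptamer that Rbpj is known to bind, was present in the upstream peak and at the edge of the intron 18 peak. The window of the upstream peak is shown because it holds the heptamer, in capitals as its reverse complement TTCCCAC.
Notch4, 2852 bp upstream, chr17:34698425-34698485: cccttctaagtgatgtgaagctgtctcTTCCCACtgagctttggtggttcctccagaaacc

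Notch1, the receptor best known from T cell development, lies at chr2:26313423-26372183 on the minus strand and had no peak in the gene body or at its 5′ end. Its 3 peaks lie past the 3′ end of the gene. The peak chr2:26300445-26301063 is centred 18 bp from a start of Sec16a and scored 11.7, and the peak beside it, at 678 bp from that gene, scored 11.2. The third, chr2:26264607-26264948, is centred 54 bp from a start of Inpp5e and scored 9.16. All 3 scored below the list median of 12.1.

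Dll1, a Delta-like ligand gene at chr17:15504318-15513836 on the minus strand, had 1 peak, chr17:15532801-15533452, which scored 28.6. The peak is centred 84 bp from a start of Fam120b and 19290 bp from Dll1, and the sequence below holds its TGTGGT, 272 bp from the centre.
Dll1 window, next to Fam120b, chr17:15532801-15532915: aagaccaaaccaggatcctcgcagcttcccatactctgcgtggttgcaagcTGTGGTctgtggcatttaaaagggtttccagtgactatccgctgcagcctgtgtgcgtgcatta

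Rbpj encodes the DNA-binding protein through which all Notch receptors act. The gene lies at chr5:53947018-54048684 on the plus strand. Its 4 peaks were spread over the region upstream of the 5′ end of the gene and a site inside the gene body. The peak farthest upstream, chr5:53900620-53901083, lies 46167 bp from that 5′ end, is in no protein-coding gene and scored 24.95. The strongest, chr5:53930897-53931648, lies 15746 bp upstream and scored 28.2. The third upstream peak, chr5:53937848-53938329, lies at 8930 bp and scored 8.74. The last, chr5:53980570-53980876, is inside the gene body but upstream of the longest coding Rbpj transcript. It is 731 bp upstream of the nearest Rbpj start, that of a protein-coding transcript, and scored 13.4. Its G+C content was 68.7%, against 46.1% to 52.6% for the upstream peaks.

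Both the peak at 46167 bp and the peak at 8930 bp held a single TGTGGT, 37 bp and 13 bp from their centres. The strongest peak and the peak in the gene held none. The windows around the hexamer in the former peaks, and around the centre of the strongest peak, show this difference, again with the hexamer in capitals.
Rbpj, 46167 bp upstream, chr5:53900829-53900949: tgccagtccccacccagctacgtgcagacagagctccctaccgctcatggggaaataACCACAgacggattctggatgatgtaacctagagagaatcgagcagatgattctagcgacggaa
Rbpj, 15746 bp upstream, no hexamer, chr5:53931212-53931332: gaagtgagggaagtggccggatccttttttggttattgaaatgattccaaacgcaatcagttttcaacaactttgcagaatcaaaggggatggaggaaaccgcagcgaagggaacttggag
Rbpj, 8930 bp upstream, chr5:53938016-53938136: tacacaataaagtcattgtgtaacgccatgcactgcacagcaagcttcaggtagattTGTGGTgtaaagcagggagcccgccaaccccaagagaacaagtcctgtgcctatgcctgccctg

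Maml1 (chr11:50069136-50105838, minus strand) and Maml2 (chr9:13424434-13513832, plus strand) encode Mastermind-like coactivators, and neither had a peak in its gene body. The peaks assigned to Maml1 lie 5 bp from a start of Canx, 318 bp from a start of Sqstm1 and 2338 bp from a start of Mgat4b. They scored 17.3, 5.96 and 13.1. At Maml2 the stronger peak, with a score of 14.2, is centred 20 bp from a start of Mtmr2. The other lies 32750 bp upstream of the annotated Maml2 start and scored 4.93.

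Hes1 encodes a basic helix-loop-helix repressor and is a classical direct target of Notch and Rbpj. The gene lies at chr16:30064470-30067882 on the plus strand, and 0 other protein-coding genes reach into its window. All 3 of its peaks scored below the list median. The peak at the promoter, chr16:30065071-30065418, is centred 182 bp upstream of the start of the protein-coding transcript and scored 8.49. It lies inside the annotated gene because a noncoding Hes1 transcript starts farther upstream. A peak in intron 3, chr16:30066396-30066875, scored 6.57, and a peak 24876 bp upstream, in no protein-coding gene, scored 6.45. These are percentiles 20.0 to 34.4 of the list. A stronger peak, with a score of 31.4, lies 55.6 kb past the 3′ end and outside the limit of 50 kb, and its nearest protein-coding start is that of Hes1.

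The promoter peak of Hes1 held no TGTGGT. It held the Rbpj heptamer GTGGGAA, starting at position 30065345 and centred 78 bp upstream of the transcript start. The peak in intron 3 held a single TGTGGT and a single GTGGGAA. The windows around these heptamers are shown with GTGGGAA, or its reverse complement TTCCCAC, in capitals, and the window around the TGTGGT of the intron 3 peak follows.
Hes1, promoter, GTGGGAA, chr16:30065318-30065378: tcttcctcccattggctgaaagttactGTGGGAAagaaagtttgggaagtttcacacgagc
Hes1, intron 3, GTGGGAA, chr16:30066436-30066496: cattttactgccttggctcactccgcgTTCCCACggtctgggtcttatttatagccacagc
Hes1, intron 3, TGTGGT, chr16:30066509-30066629: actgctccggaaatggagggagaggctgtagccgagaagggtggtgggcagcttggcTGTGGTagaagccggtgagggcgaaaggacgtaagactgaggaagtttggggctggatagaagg

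Dtx1 encodes an E3 ubiquitin ligase of the Deltex family, which binds the intracellular part of Notch receptors. The gene lies at chr5:121130211-121161936 on the minus strand. Of its 6 peaks, 4 are in introns: 3 in intron 3 and 1 in intron 2. The strongest, chr5:121137919-121138815 in intron 3, scored 33.2 and, at 897 bp, was the widest peak of the 10 genes. The peak next to it, chr5:121137547-121137801, scored 3.17, and the third of intron 3 scored 12.4. The peak in intron 2 scored 7.84. The Dtx1 starts nearest to these peaks are those of transcripts with retained introns. None of the 6 covered the 5′ end of the gene, the closest being centred 14832 bp from it. Both peaks past the 3′ end were nearest a start of Rasal1, though not the same start. The peak at 867 bp from one scored 18.95 and lies in intron 19 of Rasal1. The peak at 4927 bp from another scored 9.16. The strongest peak held a single TGTGGT, 289.5 bp from its centre.
Dtx1, intron 3, chr5:121138597-121138717: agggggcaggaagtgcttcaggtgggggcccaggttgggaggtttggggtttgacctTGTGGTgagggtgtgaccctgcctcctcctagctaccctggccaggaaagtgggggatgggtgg

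Esam, at chr9:37335663-37345904 on the plus strand, was the only one of the 10 genes without a peak within 50 kb. The nearest peak centre, of chr9:37421154-37421541, lies 75443 bp from the gene body. That peak scored 14.2 and is centred 85 bp from a start of Siae.

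Over the 32 peaks the median score was 11.5 (95% interval from the order of the scores, 6.57 to 18.95) and the median of the list was 12.1. Scores at or above the upper quartile of the list were found for 7 peaks, or 21.9%, where 25.4% of all peaks reach it. These 7 belong to Notch2 and Rbpj with 2 each and to Notch4, Dll1 and Dtx1 with 1 each. Peaks nearest the start of a Notch pathway gene had a median score of 8.74, and those nearest a neighbour had 11.7. Peaks within 1 kb of a transcript start of a protein-coding gene numbered 14, or 43.8%, and 36.3% of all peaks lay as close. Of these 14, 5 were at starts of Notch2, Notch4, Rbpj and Hes1 and 9 were at starts of neighbours. The starts nearest the Notch4 peak and the Hes1 intron 3 peak among these are those of noncoding transcripts. The median width of the 32 peaks was 411 bp, against 406 bp in the list. Their median G+C content was 56.1%, against 50.7% in the list.

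**Figure D3:**
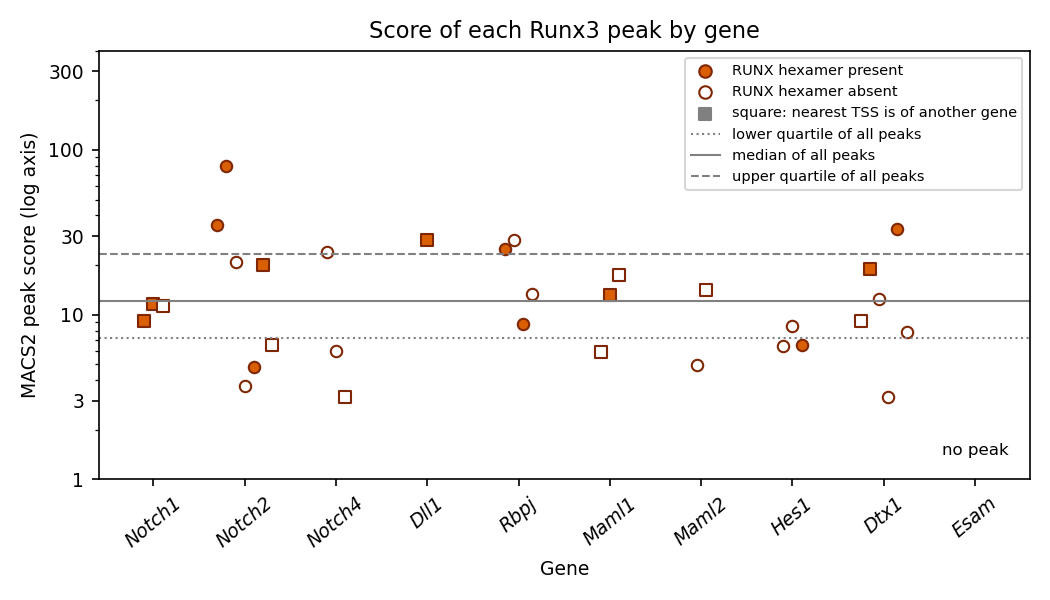
Score of each Runx3 peak (log axis) at the 10 genes, with the quartiles and median of all peaks as lines. Symbols are filled where the RUNX hexamer is present and square where the nearest start is that of another gene. At Notch2 the peaks run from 3.69 to 79.8, all 3 peaks of Hes1 lie below the median of all peaks, and Esam has no peak.

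TGTGGT was present in 13 of the 32 peaks, or 40.6%, with a Wilson 95% interval of 25.5% to 57.7%. Such an interval reflects counting alone and treats the peaks as independent. Of all peaks 54.0% held it, which is inside that interval. It was found in 4 of 7 peaks at Notch2, 2 of 3 at Notch1, 2 of 4 at Rbpj, 2 of 6 at Dtx1, 1 of 3 at Hes1 and at Maml1, and 1 of 1 at Dll1, and in none at Notch4 and Maml2. Peaks near and far from a start differ in this over the whole list, with the hexamer in 33.6% of peaks within 1 kb of a protein-coding start and in 65.7% of the others. At the 10 genes the shares were 35.7% (5 of 14) and 44.4% (8 of 18). Of the 7 peaks at or above the upper quartile of score, 5 held the hexamer, or 71.4% (Wilson 95% interval 35.9% to 91.8%), and of all peaks at or above it 65.0% did. A search of the central 200 bp alone found TGTGGT in 10 of the 32 peaks, or 31.3% (Wilson 95% interval 17.95% to 48.6%), against 41.8% of all peaks. With TGCGGT taken as a further hexamer, 16 of the 32 peaks held a match (Wilson 95% interval 33.6% to 66.4%), against 66.5% of all peaks, which is just above that interval. How Runx3 was bound at peaks without these letters was not tested.

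GTGGGAA was present in 8 of the 32 peaks, or 25% (Wilson 95% interval 13.3% to 42.1%), and in 11.2% of all peaks, which is below that interval. These 8 peaks came from 4 genes, with 3 at Dtx1, 2 each at Notch4 and Hes1 and 1 at Maml1, so they are not independent. The peak of Maml1 lies 318 bp from a start of Sqstm1, and 1 of the 3 of Dtx1 lies 867 bp from a start of Rasal1. The motif was chosen with earlier results of these data known. Within 1 kb of a protein-coding start 5 of 14 peaks held it, against 9.73% of such peaks in the list, and farther away 3 of 18 did, against 12.1%. Both TGTGGT and GTGGGAA were found in 3 peaks, which were the intron 3 peak of Hes1, the strongest peak of Dtx1 and the Dtx1 peak in intron 19 of Rasal1. The windows around GTGGGAA in the Dtx1 intron 3 peaks are shown for comparison with those of Hes1 and Notch4.
Dtx1, intron 3, strongest peak, chr5:121138509-121138569: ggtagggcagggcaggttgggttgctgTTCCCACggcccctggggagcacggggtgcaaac
Dtx1, intron 3, peak with a score of 12.4, chr5:121135861-121135921: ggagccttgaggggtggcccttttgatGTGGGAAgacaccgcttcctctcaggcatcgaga

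Motifs of other factors were searched in the same way. GAGGAA, the core known for PU.1, was present in 59.4% of the 32 peaks and in 53.6% of all peaks. TGACGT, known for Zbtb46, was in 9.38% and 11.0%. TGANTCA, known for AP-1, was in 1 peak, or 3.13% (Wilson 95% interval 0.554% to 15.7%), and in 13.2% of all peaks. That peak is assigned to Maml1 and lies nearest a start of Mgat4b.

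**Figure D4:**
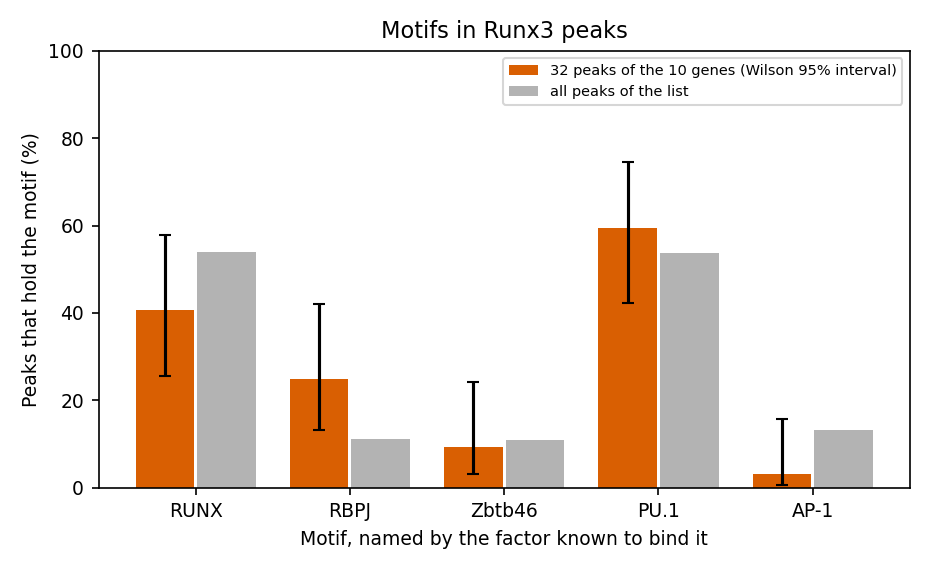
Share of peaks that hold each motif on either strand (%), for the 32 peaks of the 10 genes (orange, error bars are Wilson 95% intervals of counting error) and for all 15121 peaks (grey). The motifs are named by the factor known to bind them. The RBPJ motif is in 25% and 11.2% of peaks, and the RUNX motif in 40.6% and 54.0%.

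The rest of the pathway was described by a list of 46 further genes, grouped by role and also chosen with earlier results known. Of these, 42 had a peak within 50 kb, and with the 10 genes above 51 of 56 did, where 62.5% of protein-coding genes do. A peak nearest their own start was held by 21 of the 46, where 36.5% of protein-coding genes held one at any distance. The median was 2.5 peaks per gene and 1.81 peaks per 100 kb. The 4 genes without a peak were Numbl, which encodes a Numb-like adaptor, the ubiquitin ligase gene Mib1, the corepressor gene Ctbp1 and Hey1, a target of the Hes and Hey family.

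Among the proteases that cut Notch receptors, all 10 genes had a peak within 50 kb, where 62.5% of protein-coding genes do. A peak nearest their own start was held by 6 of these 10. The 1 peak of Aph1b lies in intron 2 of Aph1c and is counted for both genes. Adam17, which encodes a metalloprotease that can shed the ectodomain, had the most with 7, and a peak centred 5 bp from its start scored 39.1. Furin, which encodes the convertase that cleaves the receptor precursor, had the highest score of this group, 72.2, at a peak 1278 bp from a start of its neighbour Fes, and a peak inside Furin scored 44.6. All 5 glycosylation genes had peaks, and 2 of them held one nearest their own start. Lfng, a Fringe gene whose product adds sugars to Notch and changes its response to ligands, had 6, of which 4 were nearest its own start, 5 held TGTGGT and the strongest scored 58.6. At 5.55 peaks per 100 kb Lfng was denser than Dtx1.

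All 4 ligand genes had peaks, and 2 of them held one nearest their own start. Dll3, Dll4 and Jag2 had 4 each, and the strongest, with a score of 54.7 in the window of Jag2, lay 6474 bp from a start of Gpr132. Jag1 had 3, all nearest its own start. All 5 coactivator genes had peaks, and 3 of them held one nearest their own start. Ep300, which encodes the acetyltransferase p300, had 6, with the highest score at 20.3. The highest of the group was 54.7 near Crebbp, 94 bp from a start of Trap1. Notch3, the remaining receptor, had 2 peaks, with scores of at most 7.20, and neither was nearest its start.

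Of the 11 trafficking and ubiquitin genes 9 had peaks, where 62.5% of protein-coding genes do. A peak nearest their own start was held by 4 of the 11, where 36.5% of protein-coding genes held one at any distance. Dtx4, another Deltex gene, had 6, none nearest its own start, and the strongest of them scored 112 and lay 7235 bp from a start of Pfpl. Of the 5 corepressor genes 4 had peaks, and 3 of the 5 held one nearest their own start. Spen, which encodes a corepressor that binds Rbpj, had 6, of which 4 were nearest its own start. Of the 5 further targets 4 had peaks, and 1 of the 5 held one nearest its own start. Hey2 had 3, with scores of at most 9.16, and the 1 peak at Ptcra, which this annotation does not class as protein-coding, scored 77.4 and lay 319 bp from a start of Cnpy3.

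**Figure D5:**
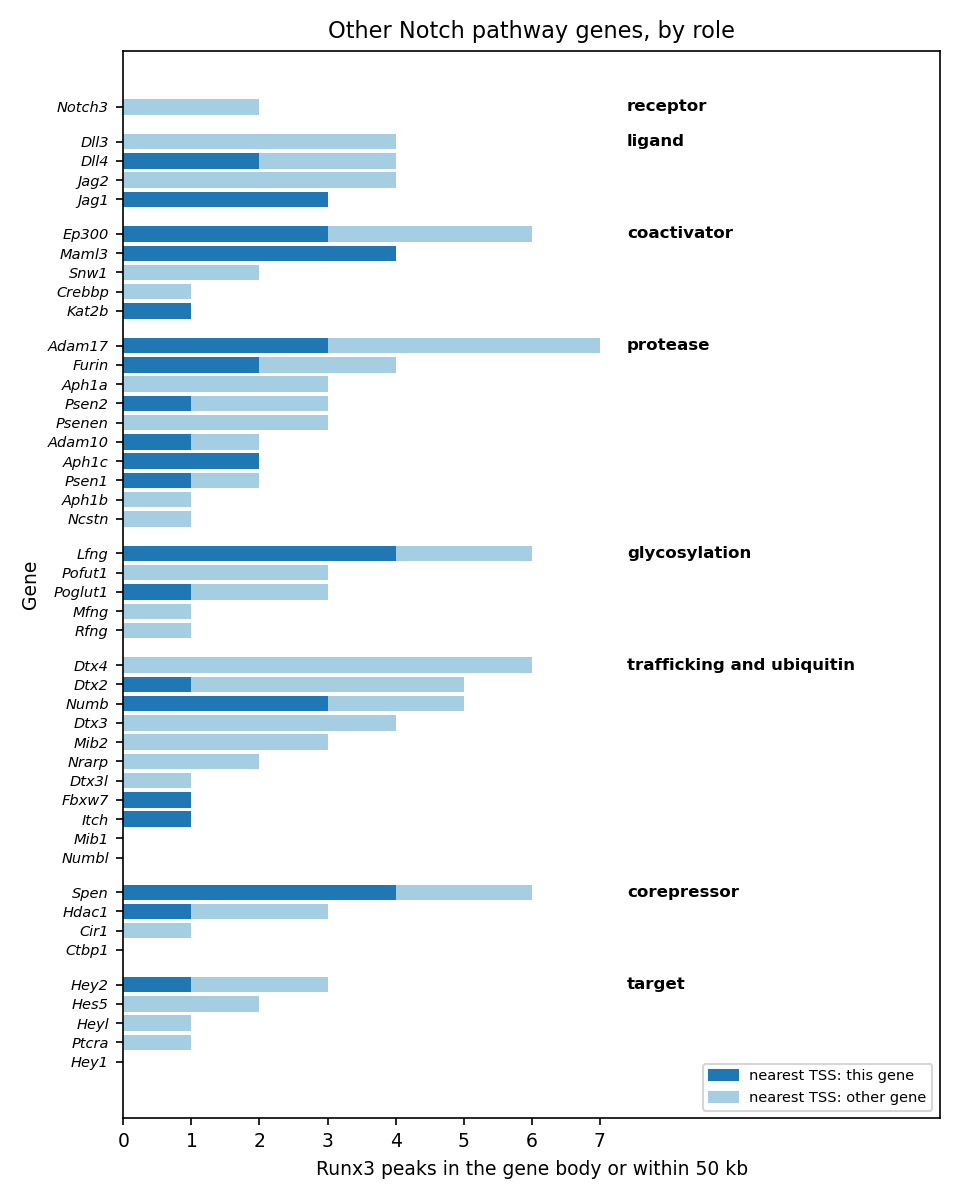
Runx3 peaks in the gene body or within 50 kb for the further Notch pathway genes, grouped by role, with 1 gene not drawn. Dark bars count peaks whose nearest protein-coding start is that of the gene and light bars those nearest another gene. Adam17 has the most peaks, 7, and Numbl, Mib1, Ctbp1 and Hey1 have 0.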

How the data were processed

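Runx3 ChIP-seq of splenic CD4+ DC was measured in 2 Runx3 samples and 2 input samples. The authors kept reads of 50 bp that bowtie placed at a single site of mm9, from fragments of about 300 bp, and found bound regions with MACS2. The submitters' processing notes also name CASAVA 1.8. Versions of bowtie and MACS2, the threshold and the handling of duplicates are not given in the sources used here. The deposited list comes from 1 pooled call and holds a score per peak, as the authors' MACS2 wrote it, in no stated unit.

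Positions are mm9, counted from 1. Sequence was read from the NCBIM37 genome and gene models from GENCODE M1, and all peaks lay within its chromosomes. Exon and intron numbers follow each gene's longest coding transcript. Starts are those of any transcript of a protein-coding gene, noncoding transcripts included. Each motif was looked for on either strand, over the full length of a peak. The 10 genes, the list of 46 further pathway genes and the motifs were chosen with earlier results of these data known. Named among the 46 were, in each role, the gene with the most peaks and the gene with the highest score. Values of some listed genes are not reported here. Jag1, the genes without a peak, the peak inside Furin, the density of Lfng and the further sequences were added after their values were seen. Sequence was shown for 121 bp around the TGTGGT nearest the centre, or the centre, of the strongest peak of each gene, cut at the peak's edge and left out where it overlapped a UTR (Notch1, Maml1 and Maml2). For the strongest peaks of Hes1 and Notch4, which hold no TGTGGT, the window around GTGGGAA is shown instead.

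No test was made, since the pooled list has no value per sample. Values are set beside those of all protein-coding genes or all peaks, with Wilson 95% intervals for shares. Placement and motif search were tested on simulated data. The alternatives were other distance limits, the nearest start, regulatory domains (a basal stretch around the start of each gene, extended to those of its neighbours by at most 1000 kb), scores at or above the list median or upper quartile, any base of the peak, the 200 bp around the centre, TGCGGT as a further hexamer and, chosen after seeing the data, peaks closer than 300 bp joined. Scripts ran under matplotlib 3.10.9, pysam 0.24.0, pandas 2.3.3, scipy 1.17.1 and numpy 2.4.6 in Python 3.11.15.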

Additional observations from a re-analysis of the deposited data

How the results depend on the processing

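The number of the 10 genes with a peak was 9 within 50 kb, and fell to 5 for the gene body alone, for 10 kb around it and for peaks at or above the upper quartile of score, where 23.1%, 43.4% and 31.0% of protein-coding genes had a peak. It was 10 within 100 kb, which takes in Esam, where 72.1% of protein-coding genes had a peak. It was 6 both with regulatory domains and by the nearest start, where 43.3% and 36.5% had one. The 32 peaks became 11 in the gene bodies, 16 within 10 kb, 51 within 100 kb, 15 at or above the list median and 7 at or above the upper quartile. Of the 46 further genes, 42 had a peak within 50 kb, 15 in the gene body and 26 within 10 kb. Over all protein-coding genes the shares were 62.5%, 23.1% and 43.4%. At or above the upper quartile 23 of the 46 had one, with regulatory domains 26 and by the nearest start 21. Over all protein-coding genes these shares were 31.0%, 43.3% and 36.5%. The median score of 11.5 became 20.9 and 28.55 under the limits on score, which follows from the limits, and the share with TGTGGT went from 40.6% to 71.4% at the upper quartile (7 peaks), while that of all peaks went from 54.0% to 65.0%. The other values moved less, and joining peaks closer than 300 bp, chosen after seeing the data, left 30 peaks at the same number of genes, 9. No paired analysis was possible because the list is a single call on the pooled samples, and leaving out a replicate was not possible for the same reason. Depth per sample was not analysed here, so weak sites may be missing from the list.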

Other observations

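Some peaks outside the limit of 50 kb are given as values. A peak 81.3 kb upstream of Notch2, chr3:97735616-97736692, scored 77.6, close to the 79.8 of the strongest peak inside the limit, and its nearest protein-coding start is that of Sec22b. At Dtx1 a peak 63.8 kb from the gene body scored 49.3 and lies 1888 bp from a start of Oas3. Just outside the limit at Notch4, a peak at 51.3 kb scored 9.45, while just inside the limit the peaks of Notch1 at 48.6 kb and Notch2 at 48.4 kb scored 9.16 and 35.1.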
